A study of Homo sapiens with 18 samples.

Results

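The genes described here are 34 target genes and regulators of the transcription factor NRF2 that act against oxidative and electrophilic stress. They were taken from a fixed list of gene names, and a gene was included where the GeneName column of the array carried its symbol on a spot that was not a control. By this rule 33 of the 34 genes had a probe, out of 36204 gene names on the array. *TRIM16* had none under that name and was not analysed here. HT29, from a human colorectal adenocarcinoma, is sensitive to the platinum drug oxaliplatin (OXA). HTOXAR3 is the OXA-resistant subline that was derived from HT29 by growing it in rising doses of OXA, and it is the sole resistant line on these arrays. Each line was profiled untreated and 24 h after the addition of OXA or of OXA plus Curcumin, the main active compound of turmeric, with 3 arrays, named biological replicates, in each of the 6 groups. OXA was used at 10 µM in HT29 and at 30 µM in HTOXAR3, and Curcumin at 10 µM in both, so the lines after OXA differ in dose as well as in origin. Cells given Curcumin alone were not analysed here, so the effect of Curcumin could be measured only on top of OXA. The untreated groups carried no drug.

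NRF2, encoded by *NFE2L2*, is held in the cytoplasm by KEAP1, which presents it to a CUL3 ubiquitin ligase for degradation. Electrophiles and oxidants modify cysteines of KEAP1, NRF2 then escapes degradation, pairs with a small MAF protein in the nucleus and binds antioxidant response elements in the promoters and enhancers of its targets. BACH1 competes for such elements as a repressor. The targets make and recycle glutathione and thioredoxin, supply NADPH, break down heme and inactivate reactive compounds. In colorectal epithelium and its tumours this programme is known for its part in the handling of electrophiles, carcinogens and drugs. Because NRF2 is controlled mainly through its stability, the amount of its mRNA need not follow its activity.

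The antioxidant response element was looked for in the promoters of the genes, since it is the sequence through which NRF2 acts. The core TGACNNNGC was searched on both strands of the RefSeq windows on GRCh38 that run from 250 bases before to 50 bases after each start. A window was given for 28 of the 34 genes, and 12 of these genes held the core, which is 42.9%. Over all 27305 genes with a window the core stood in 16.1%. No window was given for *SLC7A11*, *GSR*, *PRDX1*, *HMOX1*, *CBR3* and *TRIM16L*. Stretches around matches of 8 genes are shown for members from each of several roles, upstream of the start and 5′ to 3′ on the strand of the gene, with each core or its reverse complement in capitals. A match to these letters is a description of the window and not a binding site shown by these data. The match of *GCLM*, the regulatory subunit of glutamate-cysteine ligase, lay at chr1:93909431-93909489 on the minus strand, from position -34 to -26 against the start.
GCLM: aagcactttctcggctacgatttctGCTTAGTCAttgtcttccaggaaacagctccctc
*GPX2*, a glutathione peroxidase of the intestine, had its match at chr14:64942834-64942892 on the minus strand, from -122 to -114.
GPX2: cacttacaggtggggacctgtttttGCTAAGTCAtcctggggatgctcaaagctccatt
*ME1*, the cytosolic malic enzyme that yields NADPH, had one at chr6:83431155-83431213 on the minus strand, from -137 to -129.
ME1: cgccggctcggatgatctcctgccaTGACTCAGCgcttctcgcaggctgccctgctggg
*TXNRD1*, thioredoxin reductase, had one at chr12:104286905-104286963 on the plus strand, from -102 to -94.
TXNRD1: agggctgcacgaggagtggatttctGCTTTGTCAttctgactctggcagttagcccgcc
*EPHX1*, microsomal epoxide hydrolase, had one at chr1:225825251-225825309 on the plus strand, from -78 to -70.
EPHX1: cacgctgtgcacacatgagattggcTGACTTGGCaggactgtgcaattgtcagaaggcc
*CYP4F11*, a cytochrome P450 that hydroxylates fatty acids, had one at chr19:15934990-15935048 on the minus strand, from -156 to -148.
CYP4F11: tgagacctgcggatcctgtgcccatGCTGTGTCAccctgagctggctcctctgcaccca
*MAFF*, a small MAF protein, had one at chr22:38201847-38201905 on the plus strand, from -122 to -114.
MAFF: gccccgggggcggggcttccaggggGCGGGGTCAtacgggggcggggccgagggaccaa
*KEAP1*, the repressor of NRF2, had matches from -54 to -46 and from -31 to -23, both within chr19:10502772-10502827 on the minus strand.
KEAP1: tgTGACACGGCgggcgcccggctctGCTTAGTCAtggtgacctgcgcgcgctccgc

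Levels are given as log2 intensities after background correction and quantile normalization, with the brightest probe standing for a gene, and changes are differences of group means on that scale. A gene was called in a comparison when the Benjamini-Yekutieli (BY) adjusted p of limma, over all gene names, was below 0.05 and the fold change exceeded 1.2. Levels of different genes were not compared, since they depend on the probe. On the 18 arrays 52.4% to 63.6% of the non-control spots were well above background. The epithelial markers *EPCAM*, *CDH1*, *KRT8*, *KRT18* and *KRT19* were well above background on all arrays, while *CDX2* was so on 10 and *CDH17* on 5 of them. Some of the 10 epithelial markers changed with the groups. The intestinal markers *LGALS4* and *VIL1* were lower in the resistant line without treatment (log2 -2.08 and -1.61), as was *CDH17*, at least 1.4-fold. OXA raised *VIL1* by 1.06 and lowered *CEACAM5* (log2 -2.15) in HT29. Adding Curcumin raised *KRT19* by 0.34 and lowered *LGALS4* (log2 -0.62) in HTOXAR3 and changed none of the 10 by a call in HT29. The log2 of the summed intensity of the 10 markers lay between 19.47 and 19.73 over all arrays. This sum rests mostly on the bright *KRT18* and *KRT19* and says little of the dimmer markers. In HT29 it ran from 19.47 to 19.53 untreated, 19.60 to 19.66 after OXA and 19.64 to 19.73 after OXA plus Curcumin. In HTOXAR3 it ran from 19.52 to 19.56, 19.52 to 19.54 and 19.71 to 19.72 in the same order. The part of these changes in the results below was not tested. Of the markers of other cell types, *COL3A1* was well above background on 0 arrays, *PECAM1* on 4 and *COL1A1* on 10. *COL1A1* was at least 1.99-fold higher after OXA than in untreated HT29 (BY adjusted p = 0.0014 in limma). *PTPRC* lay between 5.96 and 6.51 and *CD3E* between 4.90 and 5.58, and they were well above background on 18 and 17 arrays. The arrays lay on 3 slides, of which slide 1 held 2 arrays, both of HT29, and slides 2 and 3 held 8 arrays each, with all 6 groups on both. Of the 33 genes, 30 were well above background on all arrays. *NFE2L2* and *ADH7*, an alcohol dehydrogenase that oxidises retinol, were not well above background on any array, so that no fold change is given for them. *CYP4F11* was well above background on 7 arrays.

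Adding Curcumin to OXA raised most of the genes in both lines, and none was called lower. In HT29, 22 of the 33 genes (66.7%) were higher after OXA plus Curcumin than after OXA, where 5.53% of all gene names were called, 3.14% higher and 2.39% lower. In HTOXAR3 the count was 25 of 33 (75.8%), where 8.83% of all gene names were called, 4.43% higher and 4.41% lower. Among the gene names well above background on all arrays, the shares called higher were 5.96% and 8.46%. With only the groups compared in the fit, most calls of the members were lost in both lines, as counted further on. The median change of the 33 genes was 0.45 in HT29 and 0.56 in HTOXAR3, beside a median of -0.02 over all gene names in both lines. The 3 arrays after OXA plus Curcumin lay above all 3 arrays after OXA for 26 genes in HT29 and 29 genes in HTOXAR3, against 12.6% and 14.7% of all gene names. Of the genes not called, 11 in HT29 and 8 in HTOXAR3, those well above background changed by -0.10 to 0.42 and by -0.03 to 0.40. In such bulk RNA, more cells that express a gene and more RNA per cell cannot be told apart.

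**Figure D1:**
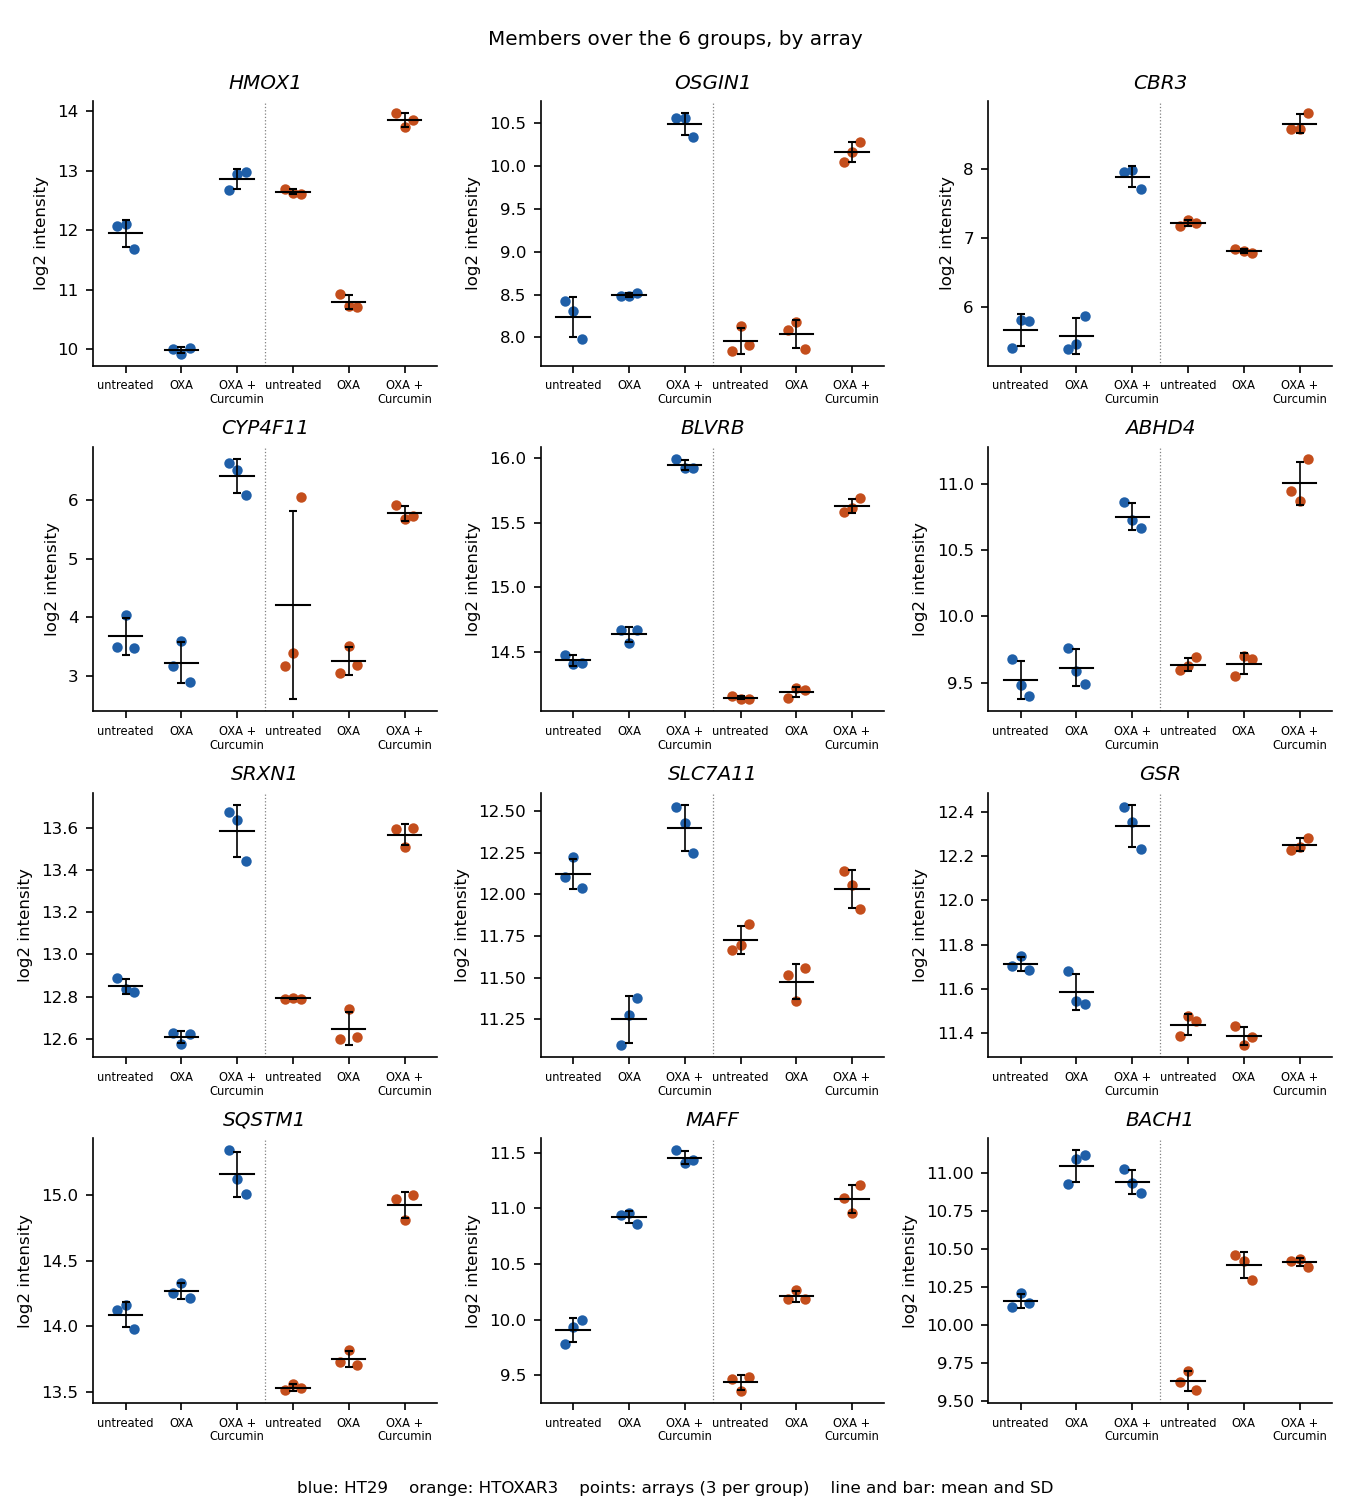
Log2 intensity (vertical axis, a scale of its own for each gene) of 12 genes on every array of the 6 groups, with HT29 in blue and HTOXAR3 in orange. Points are arrays, 3 per group, and lines with bars are the mean and SD. *HMOX1* lay lowest after OXA and highest after OXA plus Curcumin in both lines, and 1 untreated HTOXAR3 array stood apart for *CYP4F11*.

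Of the 5 regulators, 2 were called higher with Curcumin in each line. *NFE2L2*, measured at chr2:178095693-178095752 of GRCh37, had readings of 2.53 to 3.73 over all 18 arrays, none well above background. *KEAP1*, measured at chr19:10597262-10597321, lay between 12.04 and 12.08 on the HT29 arrays after OXA and at 12.22, 12.14 and 12.07 after OXA plus Curcumin. On the HTOXAR3 arrays it was at 12.04, 12.13 and 11.98 after OXA and at 12.23, 12.18 and 12.24 after OXA plus Curcumin. These changes of 0.08 (SE 0.06) and 0.16 (SE 0.06) were not called (limma, BY adjusted p = 1 and 0.69). *BACH1* was not called either, with changes of -0.10 and 0.02. The small MAF genes, whose proteins are the DNA-binding partners of NRF2, were called higher in both lines. *MAFG* rose by 0.52 (SE 0.07) in HT29 and by 0.56 (SE 0.07) in HTOXAR3. For *MAFF* the rises were 0.54 (SE 0.08) in HT29 and 0.88 (SE 0.08) in HTOXAR3.

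Heme breakdown held the gene with the widest range of all members. *HMOX1*, heme oxygenase 1, which opens the heme ring, was measured at chr22:35790122-35790181 of GRCh37. In HT29 it lay at 12.06, 12.10 and 11.69 untreated, at 10.00, 9.92 and 10.01 after OXA and at 12.68, 12.95 and 12.97 after OXA plus Curcumin. In HTOXAR3 it lay at 12.69, 12.63 and 12.61 untreated, at 10.92, 10.72 and 10.71 after OXA and at 13.97, 13.73 and 13.85 after OXA plus Curcumin. The 3 conditions did not overlap in either line, with OXA lowest and OXA plus Curcumin highest. Adding Curcumin raised *HMOX1* 7.41-fold in HT29 (log2 2.89, SE 0.11, BY adjusted p = 4.46e-08 in limma) and 8.37-fold in HTOXAR3 (log2 3.06, SE 0.11, BY adjusted p = 1.38e-08).

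*BLVRB*, the biliverdin reductase that acts downstream of heme oxygenase, lay at 14.48, 14.41 and 14.42 in untreated HT29, at 14.67, 14.57 and 14.67 after OXA and at 15.99, 15.92 and 15.92 after OXA plus Curcumin. The HTOXAR3 values were 14.16, 14.14 and 14.14 untreated, 14.15, 14.22 and 14.21 after OXA and 15.58, 15.61 and 15.69 after OXA plus Curcumin. All arrays with Curcumin thus stood above all others of their line. The rise was 2.47-fold in HT29 and 2.71-fold in HTOXAR3 (log2 1.30 and 1.44, SE 0.05 each). *FECH*, ferrochelatase, which inserts iron to make heme, rose by 0.43 (SE 0.07) in HT29. This call was lost without OXA replicate 2 (BY adjusted p = 0.057 in limma) and was not shared by the second probe of *FECH* (0.04). Its change of 0.25 (SE 0.07) in HTOXAR3 was not called (BY adjusted p = 0.23 in limma).

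Among the enzymes that inactivate reactive compounds, 6 of 9 were called higher in HT29 and 8 of 9 in HTOXAR3. *CBR3*, a carbonyl reductase measured at chr21:37518379-37518438 of GRCh37, lay at 5.40, 5.80 and 5.79 in untreated HT29, at 5.39, 5.46 and 5.87 after OXA and at 7.96, 7.99 and 7.71 after OXA plus Curcumin. HTOXAR3 had values of 7.17, 7.26 and 7.21 untreated, 6.83, 6.80 and 6.77 after OXA and 8.58, 8.58 and 8.81 after OXA plus Curcumin. *CBR3* thus rose 4.97-fold in HT29 and 3.62-fold in HTOXAR3 (log2 2.31 and 1.85, SE 0.13 each), from a higher level in HTOXAR3. With a normexp offset of 50 the HT29 rise was 1.55. Its neighbour on chromosome 21, the related reductase *CBR1*, rose by 0.38 (SE 0.06) in HTOXAR3, a call lost with the mean of all probes (BY adjusted p = 1 in limma) and without OXA plus Curcumin replicate 3 or OXA replicate 3 (BY adjusted p = 0.066 and 0.067). Its change of 0.32 (SE 0.06) in HT29 was not called (BY adjusted p = 0.052 in limma), but was with replicate number as a block (BY adjusted p = 0.033). A second, mostly dim probe of *CBR1*, well above background on 5 arrays, gave 0.06 and 0.13 in the lines, not called.

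*CYP4F11* went from not well above background to well above it. In HT29 it read 3.18, 3.60 and 2.90 after OXA, none of them well above background, and 6.63, 6.51 and 6.08 after OXA plus Curcumin. In HTOXAR3 it read 3.06, 3.51 and 3.18 after OXA, again below that mark, and 5.92, 5.67 and 5.73 after OXA plus Curcumin. Against the lowest signal well above background on the arrays after OXA, the gene was at least 5.6-fold higher in HT29 (BY adjusted p = 0.014 in limma) and at least 4.45-fold higher in HTOXAR3 (BY adjusted p = 0.0496). By the same measure its second probe, not well above background on any array after OXA, was at least 2.74-fold higher in HT29 and at least 5.55-fold higher in HTOXAR3 (limma over all probes, BY adjusted p = 0.0011 and 0.00016). With slide as a block neither call of the first probe held (BY adjusted p = 0.058 and 0.094), and the HT29 call was lost without OXA plus Curcumin replicate 1 or 2 or OXA replicate 1 or 3 (BY adjusted p of 0.065 to 0.085). The call of the first probe in HTOXAR3 was lost with replicate number as a block (BY adjusted p = 0.096 in limma), with normexp and scaling to the 75th percentile (BY adjusted p = 0.20) and without any 1 of the 6 arrays compared (BY adjusted p = 0.13 to 0.22). The fitted log2 difference of the first probe, taken from values after OXA not well above background, ran from 1.18 to 4.93 in HT29 and from 0.81 to 4.37 in HTOXAR3 over all settings.

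*ABHD4*, a lipid hydrolase, lay at 9.76, 9.59 and 9.49 after OXA and at 10.86, 10.73 and 10.66 after OXA plus Curcumin in HT29, and at 9.55, 9.70 and 9.68 and then 10.94, 10.87 and 11.19 in HTOXAR3. That is a rise of 2.20-fold in HT29 and 2.56-fold in HTOXAR3 (log2 1.14 and 1.36, SE 0.10 each). *PIR*, the iron-binding nuclear protein pirin, rose from 11.39, 11.49 and 11.59 to 12.59, 12.40 and 12.46 in HT29 and from 11.80, 11.78 and 11.96 to 12.51, 12.48 and 12.52 in HTOXAR3. Its changes were 0.99 and 0.66 (SE 0.08 each). *NQO1*, the quinone reductase often used as a readout of NRF2, rose by 0.59 in HT29 and 0.76 in HTOXAR3 (SE 0.06 each). *EPHX1* rose by 0.45 and 0.42, calls lost without OXA plus Curcumin replicate 3 in either line, without OXA replicate 2 in HT29 or without OXA replicate 1 in HTOXAR3 (BY adjusted p of 0.051 to 0.085 in limma). *UGDH*, which makes the UDP-glucuronate used for conjugation, rose by 0.43 in HTOXAR3, while its 0.24 in HT29 was not called. *ADH7* was not well above background in any group.

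In glutathione metabolism 4 of 5 genes were called higher in each line. *SLC7A11*, the cystine carrier xCT that supplies cysteine for glutathione, rose from 11.10, 11.28 and 11.38 after OXA to 12.52, 12.43 and 12.25 after OXA plus Curcumin in HT29. In HTOXAR3 it went from 11.52, 11.36 and 11.56 to 12.14, 12.05 and 11.91. The rises were 2.22-fold in HT29 (log2 1.15, SE 0.10) and 1.47-fold in HTOXAR3 (log2 0.56, SE 0.10). The call in HTOXAR3 was lost without OXA plus Curcumin replicate 1 or 2 or OXA replicate 2 (BY adjusted p = 0.071, 0.054 and 0.072 in limma). *GSR*, which regenerates reduced glutathione, rose by 0.75 and 0.86 (SE 0.06 each), and its second probe, also well above background on all arrays, by 0.47 and 0.58. *GCLC*, the catalytic subunit of glutamate-cysteine ligase, rose by 0.37 and 0.50 (SE 0.05 each). Its partner *GCLM*, measured with a larger spread, changed by 0.29 and 0.40 and was not called in either line. *GPX2* rose by 0.33 in HT29 and 0.31 in HTOXAR3, and both calls were lost with replicate number as a block (BY adjusted p = 0.081 and 0.076 in limma), with normexp and scaling to the 75th percentile (BY adjusted p = 0.18 and 0.051), in HT29 with the processed signal so scaled (BY adjusted p = 0.20) and without any 1 of the arrays compared, other than OXA plus Curcumin replicate 1 in HT29 (BY adjusted p of 0.059 to 0.20).

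Of the 4 thioredoxin genes, 1 was called higher in HT29 and 4 in HTOXAR3, and with Benjamini-Hochberg adjustment 3 and 4, where 5.45% and 6.71% of all gene names were called higher. *SRXN1*, sulfiredoxin, which reactivates peroxiredoxins, rose by 0.97 in HT29 and 0.92 in HTOXAR3 (SE 0.06 each). *TXNRD1* lay at 11.42, 11.36 and 11.13 in untreated HT29, at 12.01, 11.76 and 11.48 after OXA and at 12.39, 12.12 and 12.00 after OXA plus Curcumin, so that the last pair of groups met at 12.00 and 12.01. For HTOXAR3 the values were 10.94, 11.00 and 11.03 untreated, 11.11, 10.97 and 10.98 after OXA and 11.82, 11.85 and 11.96 after OXA plus Curcumin. *TXNRD1* rose 1.81-fold in HTOXAR3 (log2 0.86, SE 0.13), and its 0.42 in HT29 was not called (BY adjusted p = 0.50 in limma). *TXN*, thioredoxin itself, and the peroxiredoxin *PRDX1* rose by 0.38 and 0.35 in HTOXAR3. Their 0.29 and 0.19 in HT29 were not called, although *TXN* was called with a normexp offset of 50, with normexp and scaling to the 75th percentile and with dim names left out (BY adjusted p of 0.017 to 0.042 in limma), and the differences between the lines are given with their intervals further on.

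For NADPH supply, *ME1* lay at 9.16, 9.25 and 9.36 after OXA and at 10.29, 10.07 and 9.99 after OXA plus Curcumin in HT29, and at 9.62, 9.74 and 9.62 and then 10.71, 10.67 and 10.72 in HTOXAR3. The rises were 1.82-fold and 2.05-fold (log2 0.86 and 1.04, SE 0.09 each). *PGD*, an enzyme of the oxidative branch of the pentose phosphate pathway, rose by 0.37 and 0.32, and its HT29 call was lost with the processed signal scaled to the 75th percentile (BY adjusted p = 0.057 in limma) and without any 1 array other than OXA replicate 1 (BY adjusted p of 0.061 to 0.15 in limma). *TALDO1*, transaldolase of the non-oxidative branch of that pathway, rose by 0.28 in HT29, with 0.23 in HTOXAR3 not called. *TKT*, transketolase, changed by 0.06 and -0.03 and was not called. The HT29 call of *TALDO1* and the HTOXAR3 call of *PGD* were lost with replicate number as a block (BY adjusted p = 0.070 and 0.059 in limma), with the processed signal scaled to the 75th percentile (BY adjusted p = 0.093 and 0.075), with the mean of all probes (BY adjusted p = 0.053 and 0.054) and without any 1 of the arrays compared (BY adjusted p of 0.11 to 0.24 and of 0.062 to 0.27). The *TALDO1* call was also lost with slide as a block (BY adjusted p = 0.13 in limma) and with normexp and scaling to the 75th percentile (BY adjusted p = 0.091).

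The remaining genes were called higher in both lines. *OSGIN1*, an inhibitor of growth that responds to oxidative stress, lay at 8.43, 8.31 and 7.98 in untreated HT29, at 8.48, 8.48 and 8.52 after OXA and at 10.57, 10.57 and 10.35 after OXA plus Curcumin. In HTOXAR3 *OSGIN1* lay at 7.84, 8.13 and 7.91 untreated, at 8.08, 8.18 and 7.86 after OXA and at 10.05, 10.17 and 10.28 after OXA plus Curcumin. Adding Curcumin raised it by 2.00 in HT29 and 2.12 in HTOXAR3 on the log2 scale (SE 0.12 each), from levels after OXA that were not called against untreated. *SQSTM1*, the autophagy receptor p62, which also binds *KEAP1*, lay at 14.25, 14.33 and 14.22 after OXA and at 15.34, 15.12 and 15.01 after OXA plus Curcumin in HT29. HTOXAR3 went from 13.73, 13.82 and 13.71 to 14.97, 14.81 and 15.00. These are rises of 1.85-fold and 2.25-fold (log2 0.89 and 1.17, SE 0.08 each). *TRIM16L* rose by 0.57 and 0.65 (SE 0.07 each), values that are uncertain because RNA of its near-identical relative *TRIM16* may bind the same probe.

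**Figure D2:**
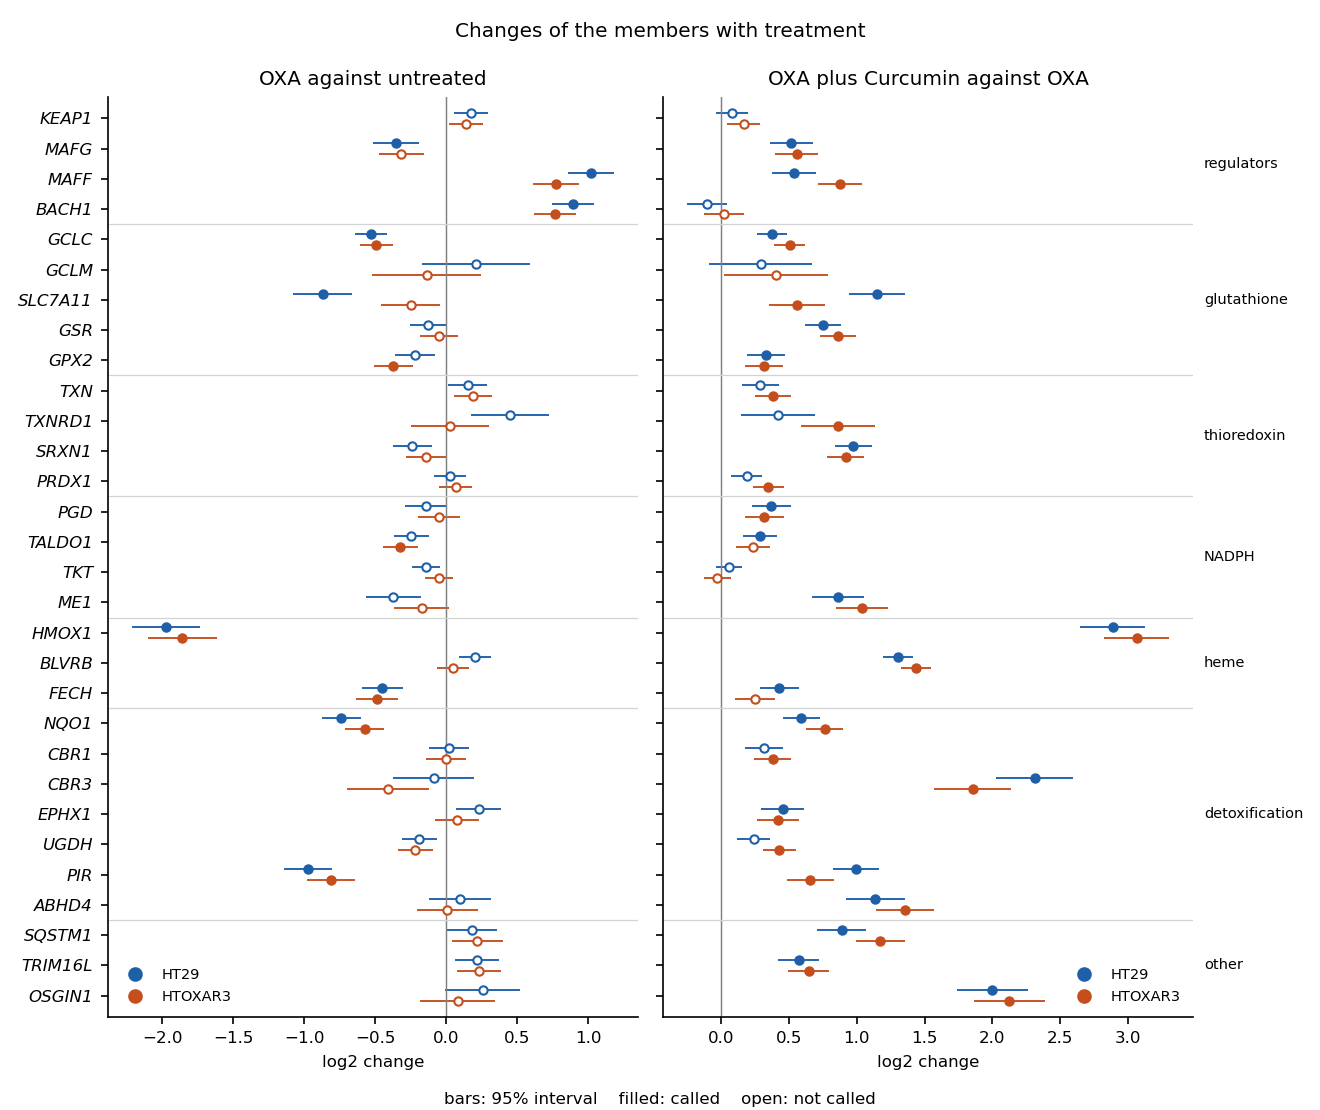
Log2 change (horizontal axis) of the 30 genes well above background on all arrays after OXA against untreated (left) and after OXA plus Curcumin against OXA (right), in HT29 (blue) and HTOXAR3 (orange). Points are changes, bars their 95% intervals, filled points are called and open points are not. On the right no gene was called lower, and on the left *HMOX1* lay farthest below 0, at -1.97 and -1.86.

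After OXA on its own, 2 of the 33 genes were called higher and 7 lower in each line. The arrays after OXA are those from which the effect of Curcumin was measured, so both comparisons share them. In HT29, 9 genes were called after OXA against untreated, where 15.9% of all gene names were called, 8.33% higher and 7.62% lower. In HTOXAR3, also 9 were called, where 10.2% of all gene names were called, 5.31% higher and 4.94% lower. Among gene names well above background on all arrays these shares were 31% and 20%, beside 27.3% of all 33 members in each line. The member shares here include *NFE2L2*, *ADH7* and *CYP4F11*, which were not that bright and were not called after OXA. The share of members called lower was 21.2% in both lines, beside 15.1% and 9.82% of the bright gene names. The median change of the members was -0.13 in HT29 and -0.05 in HTOXAR3, beside -0.01 and 0.01 over all gene names. With the processed signal scaled to the 75th percentile they were -0.21 and -0.12, beside -0.10 and -0.19 over all gene names, so that in HTOXAR3 the members then lay above the median of all names. Both scalings to the 75th percentile also called *TKT*, *TALDO1*, *GPX2* and *UGDH* lower in HT29.

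*HMOX1* fell most, from the values given above, 3.92-fold in HT29 (log2 -1.97, SE 0.11) and 3.63-fold in HTOXAR3 (log2 -1.86, SE 0.11), with BY adjusted p of 1.57e-07 and 1.31e-06 in limma. *PIR* lay at 12.57, 12.49 and 12.32 in untreated HT29 and at 12.69, 12.66 and 12.61 in untreated HTOXAR3, above its arrays after OXA throughout. It fell 1.96-fold and 1.75-fold (log2 -0.97 and -0.81, SE 0.08 each). *NQO1* went from 10.44, 10.52 and 10.50 to 9.62, 9.76 and 9.87 in HT29 and from 9.89, 9.94 and 10.03 to 9.37, 9.43 and 9.34 in HTOXAR3. These falls were 1.67-fold and 1.49-fold (log2 -0.74 and -0.57, SE 0.06 each).

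*GCLC* lay at 11.99, 11.89 and 11.87 in untreated HT29 and at 11.44, 11.35 and 11.36 after OXA. The HTOXAR3 values were 11.63, 11.59 and 11.65 untreated and 11.11, 11.15 and 11.13 after OXA. It fell by 0.53 and 0.49 on the log2 scale (SE 0.05 each), with no overlap of the groups. *FECH* went from 9.41, 9.54 and 9.26 to 8.99, 8.91 and 8.96 in HT29 and from 10.24, 10.15 and 10.18 to 9.72, 9.68 and 9.72 in HTOXAR3. These falls of 0.45 and 0.49 (SE 0.07 each) rest on its brighter probe, since a second probe, well above background on 13 arrays, gave -0.04 and -0.08 and no call.

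*SLC7A11* fell 1.83-fold in HT29 (log2 -0.87, SE 0.10), from 12.10, 12.22 and 12.04 untreated to the values after OXA given above. In HTOXAR3 it lay at 11.66, 11.69 and 11.82 untreated, and its change of -0.25 (SE 0.10) was not called (BY adjusted p = 1 in limma). *MAFG* changed by -0.36 in HT29 and -0.32 in HTOXAR3 (SE 0.07 each) and was called in HT29 (BY adjusted p = 0.025). The change in HTOXAR3 was called with a normexp offset of 50 (BY adjusted p = 0.026 in limma), with dim names left out (BY adjusted p = 0.025) and with Benjamini-Hochberg adjustment. The HT29 call was lost with replicate number as a block (BY adjusted p = 0.055 in limma), with the mean of all probes (BY adjusted p = 0.060) and without untreated replicate 1 or 2 or OXA replicate 1 or 3 (BY adjusted p of 0.055 to 0.15), and the second probe of *MAFG* was not called, at -0.23. *GPX2* lay at 15.98, 16.03 and 15.99 in untreated HTOXAR3 and at 15.59, 15.66 and 15.63 after OXA, and fell by 0.37 (SE 0.06), a call lost without untreated replicate 2 or OXA replicate 1 (BY adjusted p = 0.056 and 0.058 in limma). *TALDO1* fell by 0.32 in HTOXAR3, a call lost without untreated replicate 1 or 3 or OXA replicate 1 (BY adjusted p of 0.055 to 0.071). In HT29 the changes of *GPX2* and *TALDO1*, -0.22 and -0.25, were not called.

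The 2 genes called higher after OXA in each line were *MAFF* and *BACH1*. *MAFF* rose from 9.78, 9.94 and 9.99 to 10.94, 10.96 and 10.86 in HT29 and from 9.47, 9.36 and 9.48 to 10.18, 10.27 and 10.18 in HTOXAR3, which is 2.02-fold and 1.71-fold (log2 1.02 and 0.77, SE 0.08 each). *BACH1*, the repressor at antioxidant response elements, rose from 10.12, 10.21 and 10.14 to 10.93, 11.10 and 11.12 in HT29 and from 9.62, 9.70 and 9.57 to 10.46, 10.42 and 10.30 in HTOXAR3. These rises were 1.85-fold and 1.70-fold (log2 0.89 and 0.76, SE 0.07 each), and its second probe gave 0.82 and 0.67, also called. The 24 genes not called in each line, as far as they were well above background on all arrays, changed by -0.37 to 0.45 in HT29 and by -0.41 to 0.23 in HTOXAR3. Neither *KEAP1* (0.17 and 0.14) nor *TXNRD1* (0.45 and 0.03) was called after OXA, although *TXNRD1* was called in HT29 with slide as a block (BY adjusted p = 0.049 in limma).

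After OXA plus Curcumin, 17 of the 33 genes (51.5%) were called higher than in untreated HT29, where 18.6% of all gene names were called, 9.56% higher and 9.02% lower. In HTOXAR3 the count was 18 of 33 (54.5%), where 17.5% of all gene names were called, 8.82% higher and 8.64% lower. No member was called lower in either line. Of the epithelial markers, *CDH1* (0.49), *KRT19* (0.32) and *VIL1* (1.06) were called higher in HT29, and *CDH1* (0.32) and *KRT19* (0.29) higher and *LGALS4* (-0.61) lower in HTOXAR3, and their part in these counts was not tested. These comparisons use the same untreated arrays as those of OXA and the same arrays with Curcumin as those above, so the values are set side by side and not taken as separate evidence. *OSGIN1* stood 2.26 and 2.21 above untreated in HT29 and HTOXAR3, *CBR3* 2.22 (1.51 with a normexp offset of 50) and 1.44, *BLVRB* 1.51 and 1.48, *ABHD4* 1.23 and 1.36 and *SQSTM1* 1.07 and 1.39. *MAFF*, which rose with OXA already, stood 2.93-fold and 3.14-fold above untreated (log2 1.55 and 1.65, SE 0.08 each). *HMOX1* stood 1.89-fold above untreated in HT29 and 2.31-fold in HTOXAR3 (log2 0.92 and 1.21, SE 0.11 each), less than its rise from OXA.

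*TXNRD1* stood 0.87 and 0.89 above untreated (SE 0.13 each), called in both lines. *BACH1*, *TRIM16L*, *SRXN1*, *GSR*, *EPHX1*, *ME1*, *TXN* and *CBR1* were also called in both lines, by 0.33 to 0.79 in HT29 and 0.37 to 0.87 in HTOXAR3, and *PRDX1* by 0.41 in HTOXAR3. In HT29 *PRDX1* changed by 0.21 and was not called, while its second probe was (0.34, limma over all probes, BY adjusted p = 0.0012). *MAFG* changed by 0.16 and 0.24 and was not called, while its second probe, well above background on all arrays, was called in both lines (0.49 and 0.63, BY adjusted p = 0.0016 and 0.0002). The HT29 call of *TXN* (0.44) was lost under both scalings to the 75th percentile (0.26 each, BY adjusted p = 0.21 and 0.10 in limma). The call of *CBR1* was lost under these scalings in HT29 (BY adjusted p = 0.074 and 0.052) and with the mean of all probes in both lines (BY adjusted p = 1 and 0.94). *CYP4F11* was at least 5.36-fold higher than in untreated HT29, where it read 3.50, 4.04 and 3.48 (BY adjusted p = 0.014 in limma), a call lost with slide as a block (BY adjusted p = 0.052) or without untreated replicate 1 or 3 or OXA plus Curcumin replicate 1 or 2 (BY adjusted p of 0.066 to 0.074). In untreated HTOXAR3 it read 3.16 and 3.40 on replicates 1 and 2 and 6.05 on replicate 3, the sole one well above background. The change of 1.57 in HTOXAR3 was not called, and within slide 3, which holds replicate 3, it was -0.35. The second probe, not well above background on any untreated array of HTOXAR3, was at least 2.11-fold higher there and was called (limma over all probes, BY adjusted p = 0.00031). *KEAP1* was called higher in HTOXAR3, by 0.30 (SE 0.06), a call lost without untreated replicate 3 or OXA plus Curcumin replicate 3 (BY adjusted p = 0.057 and 0.052 in limma), and its 0.25 in HT29 passed the adjusted p (0.033) but not the fold threshold. Of the genes that fell with OXA, *NQO1* differed from untreated by -0.15 and 0.19, *GCLC* by -0.16 and 0.01, *PIR* by 0.02 and -0.15 and *FECH* by -0.02 and -0.24, none of them called. The arrays after OXA plus Curcumin lay below all untreated ones for *NQO1* and *GCLC* in HT29 and for *PIR* and *FECH* in HTOXAR3, and above them for *NQO1* in HTOXAR3. Of the 33 members 4 in each line lay lower without overlap, against 19.8% and 20% of all gene names.

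Between the untreated lines, most of the called genes were lower in the resistant line. Of the 33 genes 14 (42.4%) were called, 4 higher and 10 lower in HTOXAR3 than in HT29, where 11.5% of all gene names were called, 6.26% higher and 5.28% lower. Among gene names well above background on all arrays 10.1% were called lower, beside 30.3% of all 33 members, dim ones included. The median difference was -0.24, beside -0.03 over all gene names. Since HTOXAR3 is 1 subline, the comparison is between these cell populations, whose intestinal markers *LGALS4* and *VIL1* also differed, as given above.

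**Figure D3:**
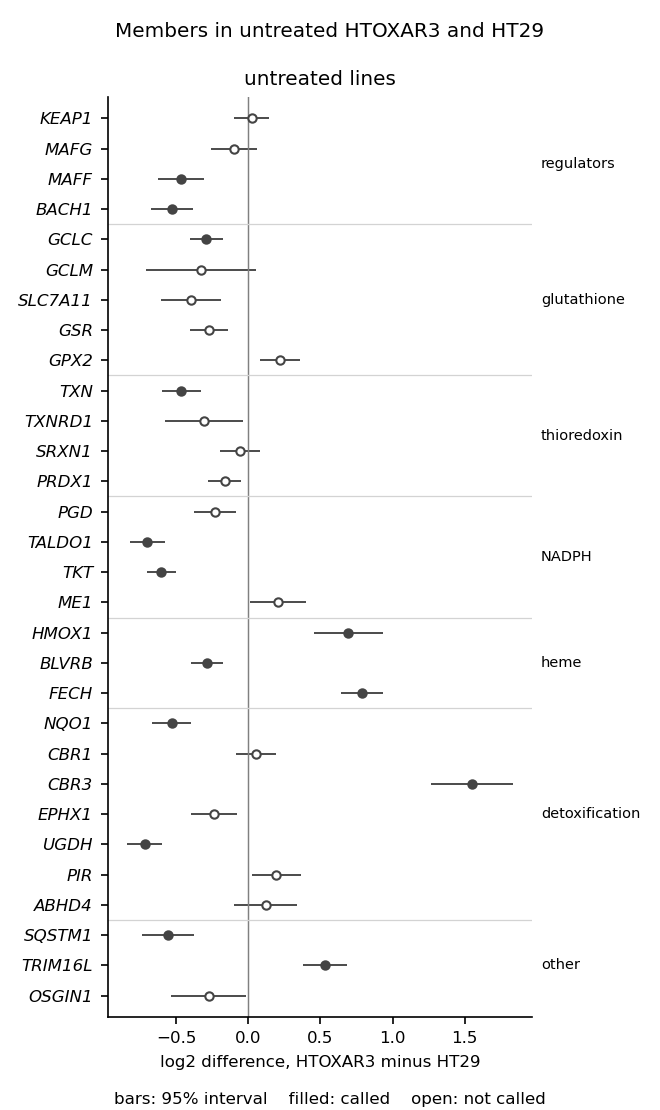
Log2 difference (horizontal axis) between untreated HTOXAR3 and untreated HT29 for the 30 genes well above background on all arrays, with 95% intervals. Filled points are called, open points are not. *CBR3* lay farthest to the right, at 1.55, and *UGDH* farthest to the left, at -0.72.

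*CBR3* was 2.93-fold higher in HTOXAR3 (log2 1.55, SE 0.13, BY adjusted p = 1.1e-05 in limma), with all 3 arrays of HTOXAR3 above all 3 of HT29. *FECH* was 1.73-fold higher (log2 0.79, SE 0.07), a difference that its dimmer probe did not share (0.11, not called). *HMOX1* was 1.62-fold higher (log2 0.69, SE 0.11), and *TRIM16L* was higher by 0.53 (SE 0.07). The lowest values relative to HT29 were those of *UGDH*, *TALDO1* and *TKT*, while the other genes of NADPH supply, *PGD* (-0.23) and *ME1* (0.21), were not called. *UGDH* lay at 13.38, 13.34 and 13.32 in HT29 and at 12.56, 12.63 and 12.69 in HTOXAR3, 1.65-fold lower (log2 -0.72, SE 0.06). *TALDO1* lay at 15.91, 16.05 and 16.04 in HT29 and at 15.30, 15.26 and 15.33 in HTOXAR3, 1.62-fold lower (log2 -0.70, SE 0.06).

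*TKT* lay at 16.89, 16.91 and 16.91 in HT29 and at 16.29, 16.31 and 16.31 in HTOXAR3, 1.52-fold lower (log2 -0.60, SE 0.05). *SQSTM1* lay at 14.12, 14.17 and 13.98 against 13.51, 13.56 and 13.53 (log2 -0.56, SE 0.08), and *NQO1* was 1.45-fold lower (log2 -0.53, SE 0.06). None of these groups overlapped. *BACH1* was lower by 0.53, *MAFF* and *TXN* by 0.47 each, and *GCLC* and *BLVRB* by 0.29 each (log2 -0.53, -0.47, -0.47, -0.29 and -0.29). The second probe of *BACH1* gave -0.35, not called. With slide as a block the differences of *GCLC* and *BLVRB* became -0.26 each and missed the fold threshold. Their calls were also lost without HT29 replicate 1 or HTOXAR3 replicate 2, and that of *BLVRB* without HTOXAR3 replicate 3 (BY adjusted p of 0.057 to 0.076 in limma). The 19 genes not called, as far as they were well above background on all arrays, differed by -0.39 (*SLC7A11*) to 0.22 (*GPX2*). *SLC7A11* and *GSR* (-0.27) were called lower with a normexp offset of 50 (BY adjusted p = 0.038 and 0.013 in limma), with dim names left out (BY adjusted p = 0.035 and 0.013) and with Benjamini-Hochberg adjustment. *NFE2L2* was not well above background, and *KEAP1* differed by 0.02 (95% interval -0.10 to 0.14).

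With BY adjustment none of these genes was called for a difference in response between the 2 lines, as tested by the interaction of line and treatment. The counts of called genes were 0 of 33 for the response to OXA, 0 of 33 for the addition of Curcumin and 0 of 33 for OXA plus Curcumin, where limma with BY adjustment called 1.01%, 0.135% and 0.856% of all gene names. With Benjamini-Hochberg adjustment the counts were 1 (*SLC7A11*), 0 and 1 (*CBR3*), where 3%, 0.892% and 3.44% of all gene names were called. At an unadjusted p under 0.05 they were 4, 7 and 8, where 13.7%, 9.74% and 14.4% of all gene names passed. The test cannot separate line from dose, because OXA was given at 3 times the concentration in HTOXAR3. For OXA and for the addition of Curcumin, *SLC7A11* differed most among the genes well above background on all arrays. Its response to OXA was higher by 0.62 in HTOXAR3 (95% interval 0.33 to 0.92, BY adjusted p = 0.26) and the effect of adding Curcumin lower by 0.59 (95% interval -0.89 to -0.30, BY adjusted p = 0.73), values that share the arrays after OXA. Within slide 2 they were 0.78 and -0.58 and within slide 3 0.30 and -0.35.

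For *CBR3* the response to OXA plus Curcumin against untreated differed by -0.78 (95% interval -1.18 to -0.37) and was not called (BY adjusted p = 0.42 in limma). With a normexp offset of 50 that value was -0.31, and with the processed signal scaled to the 75th percentile it was -1.02. *TXNRD1* differed by -0.42 after OXA (95% interval -0.81 to -0.04) and by 0.44 with Curcumin (95% interval 0.05 to 0.83). For *HMOX1* the differences were 0.11 after OXA (95% interval -0.23 to 0.46) and 0.18 with Curcumin (95% interval -0.17 to 0.52). For *OSGIN1* they were -0.18 (95% interval -0.55 to 0.20) and 0.12 (95% interval -0.25 to 0.50). For *TXN* and *PRDX1* the effect of Curcumin was higher in HTOXAR3 by 0.09 (95% interval -0.10 to 0.28) and 0.16 (95% interval -0.0037 to 0.32). The intervals of *SRXN1* for the effect of Curcumin ran from -0.26 to 0.14 and those of *BLVRB* from -0.03 to 0.29. These intervals are not adjusted for the number of genes, and a p that misses the threshold does not show equal responses.

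**Figure D4:**
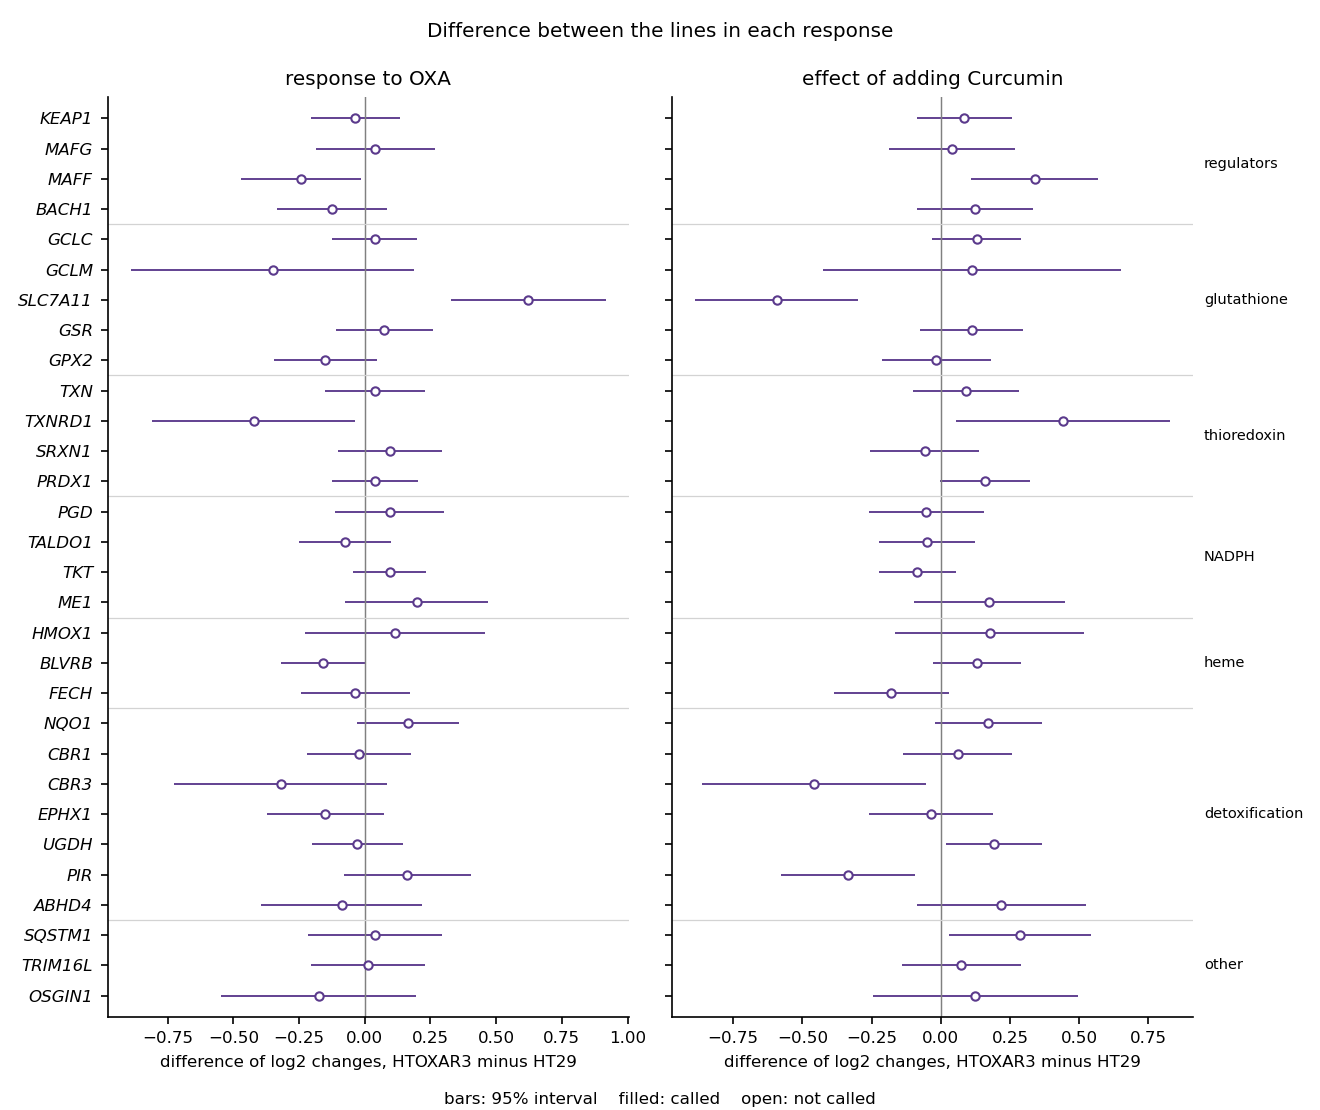
Difference between the lines (HTOXAR3 minus HT29, horizontal axis, log2) in the response to OXA (left) and in the effect of adding Curcumin (right) for the 30 genes well above background on all arrays, with 95% intervals. All points are open because none was called. *SLC7A11* lay at 0.62 on the left and at -0.59 on the right.

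The other genes of the pathway were taken from lists of further NRF2 targets, of regulators of NRF2 and of other antioxidant enzymes. Of 22 further targets with a probe, 7 were called higher and 0 lower on adding Curcumin in HT29, and 7 higher and 1 lower in HTOXAR3. That is 31.8% called higher in each line, beside 3.14% and 4.43% of all gene names. The 1 called lower in HTOXAR3 is 4.55%, near the 4.41% of all gene names. *AKR1C1*, an aldo-keto reductase, rose by 3.03 and 3.96 (SE 0.19 each), although RNA of its close relatives may bind the same probe. *FTL*, the ferritin light chain, rose by 1.19 and 1.68 (SE 0.06 each), *AKR1B10* by 1.03 and 1.25 and *AKR1C3* by 1.05 and 0.98. The gene called lower was *UGT1A6*, a glucuronosyltransferase, named after its values were seen, which fell in HTOXAR3 (log2 -0.87, SE 0.09). Between the untreated lines 1 of the 22 was called higher and 7 lower in HTOXAR3 (4.55% and 31.8%, beside 6.26% and 5.28% of all gene names). The heme carrier *SLC48A1* was higher by 0.63, while *AKR1B10*, *AKR1C1* and *AKR1C3* were lower (log2 -2.86, -2.55 and -1.15), as was *SLC6A6*, the taurine carrier (log2 -0.67). After OXA, 2 were called higher and 3 lower in HT29 (9.09% and 13.6%, beside 8.33% and 7.62%), and 1 higher and 3 lower in HTOXAR3 (4.55% and 13.6%, beside 5.31% and 4.94%). The drug efflux pump *ABCC1* rose by 0.32 and 0.35, and *KCNMB3*, a potassium channel subunit, by 0.54 in HT29. *AKR1B10* changed by -0.74 and -0.68 and *SLC6A6* by -0.74 and -0.51, all called.

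Of 24 other antioxidant and NADPH enzymes, 8 were called higher and 1 lower with Curcumin in HT29, and 8 higher and 3 lower in HTOXAR3. The share called higher was 33.3% in each line, beside 3.14% and 4.43% of all gene names. The share called lower was 4.17% and 12.5%, beside 2.39% and 4.41% of all gene names. *GPX3*, a secreted glutathione peroxidase, rose by 2.46 and 2.53 (SE 0.08 each), having risen by 1.03 and 0.60 with OXA. The quinone reductase *NQO2* rose by 0.68 and 0.67, *GLRX*, glutaredoxin, by 0.59 and 1.00, and *SOD2*, the mitochondrial superoxide dismutase, by 0.82 and 0.59. After OXA, 7 of the 24 were called higher and 1 lower in HT29 (29.2% and 4.17%, beside 8.33% and 7.62% of all gene names), and 5 higher and 2 lower in HTOXAR3 (20.8% and 8.33%, beside 5.31% and 4.94%). *TXNIP*, which binds and inhibits thioredoxin, rose with OXA by 1.96 and 1.32 (SE 0.09 each), and fell with Curcumin (log2 -0.97 and -0.51). *IDH1*, which yields cytosolic NADPH, fell with OXA (log2 -0.85 and -1.17). The glutathione synthetase *GSS* rose by 0.54 and 0.39. Between the untreated lines 4 were called higher and 3 lower in HTOXAR3 (16.7% and 12.5%, beside 6.26% and 5.28% of all gene names), and the biliverdin reductase *BLVRA* was higher by 1.43 (SE 0.08).

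Of 19 further regulators, 1 was called higher and 1 lower with Curcumin in HT29, and 3 higher and 3 lower in HTOXAR3. In HT29 these are 5.26% each way, near the 3.14% and 2.39% of all gene names, and in HTOXAR3 15.8% each way, beside 4.43% and 4.41%. *NFE2L3*, a relative of NRF2, changed by -0.53 and -0.72 (SE 0.05 each), and *MAFK*, the remaining small MAF gene, by 0.48 and 0.59. Between the untreated lines 1 was called higher and 3 lower in HTOXAR3 (5.26% and 15.8%, beside 6.26% and 5.28% of all gene names), among them *CUL3* (log2 -0.59, SE 0.06). *NFE2*, another partner of small MAF proteins, was not well above background in untreated HT29 and at least 6.27-fold higher in HTOXAR3 (BY adjusted p = 3.4e-08 in limma). After OXA 1 was called higher and 2 lower in each line (5.26% and 10.5%, beside 8.33% and 7.62% of all gene names in HT29 and 5.31% and 4.94% in HTOXAR3). *RXRA*, a nuclear receptor that binds NRF2, fell with OXA (log2 -1.61 and -0.75, SE 0.15 each).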

How the data were processed

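Total RNA of 18 cultures of HT29 and HTOXAR3 was labelled with Cy3 and hybridised to 1-colour Agilent human arrays. The deposited values are spot intensity readings of Feature Extraction 10.7.3.1, per the file headers, not normalized between arrays. The table of log2 values processed by the authors names no genes and was not used here. Groups came from the labels. Spot means were background-corrected (normexp, offset 0), log2 transformed, quantile normalized and averaged per probe, with control spots dropped and outlier spots left out. The brightest probe stood for each of 36204 gene names. All 6 groups were fitted with limma 3.58.1 in R 4.3.3, with Benjamini-Yekutieli adjustment over all names, as the study's methods chose. The steps were tested on simulated data. The members and lists were chosen with earlier results of these data known. Genes were named in full where called with the largest changes in each comparison, 8 at most, and otherwise by role. Same-numbered arrays deviated together for OXA in HT29 (correlations of 0.117 to 0.242) and for adding Curcumin in HTOXAR3 (0.109 to 0.195), where they shared slides. In the other comparisons same-numbered arrays that shared a slide gave correlations of -0.015 to 0.184. No source describes a pairing. Alternatives covered background, scaling, probes, dim names, slide, replicate block, adjustment, fold minimum, arrays in the fit and each array left out. The number of arrays limits the precision.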

Additional observations from a re-analysis of the deposited data

How the results depend on the processing

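The genes were called with Benjamini-Yekutieli adjustment in limma over all arrays, and 114 changes of named genes passed in the 7 comparisons within a line or between the untreated lines. None of them changed sign under the alternatives tried. All 114 also passed with a normexp offset of 50, with dim names left out and with Benjamini-Hochberg adjustment. With the processed signal scaled to the 75th percentile 108 passed, with normexp and that scaling 108, with slide as a block 108, with replicate number as a block 108 and with the mean of all probes 104. The scalings to the 75th percentile moved the median of all names by as much as -0.20 (OXA in HTOXAR3). Under them the member medians lay between 0.43 and 0.56 for adding Curcumin, at 0.27 and 0.29 in place of 0.44 for OXA plus Curcumin against untreated in HT29, and at -0.12 and -0.07 in place of -0.05 for OXA in HTOXAR3. With an offset of 50 the rise of *CBR3* on adding Curcumin in HT29 was 1.55 in place of 2.31, and its difference between the untreated lines 0.97 in place of 1.55. Calls were also gained beyond those given with the results: *ME1* after OXA in HT29, *CBR1* on adding Curcumin in HT29 and *PGD* for OXA plus Curcumin in HTOXAR3 with an offset of 50, with dim names left out and with Benjamini-Hochberg adjustment, *PGD* also with normexp and scaling, and *MAFG* for OXA plus Curcumin in HTOXAR3 under both scalings. With a fold minimum of 2, 1 gene was called between the untreated lines, 2 after OXA in HT29 and 1 in HTOXAR3, 7 on adding Curcumin in HT29 and 8 in HTOXAR3, and 7 for OXA plus Curcumin against untreated in each line. With only the groups compared in the fit, which leaves fewer arrays to estimate the spread, the counts were 4 between the untreated lines, 4 and 2 after OXA, 2 and 9 on adding Curcumin and 11 and 14 for OXA plus Curcumin against untreated, in HT29 and HTOXAR3. For that fold minimum and that fit, and for the fits below, the share of all gene names called is not given here. These counts show how far the calls held, and not whether members passed more often than other names. Benjamini-Hochberg adjustment called 1 gene for the line difference in response to OXA and 1 in response to OXA plus Curcumin. Of all gene names it called 3% and 3.44%.

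Leaving out 1 array at a time gave 12 to 14 called genes between the untreated lines, 8 to 9 after OXA in HT29 and 7 to 9 in HTOXAR3, 17 to 19 on adding Curcumin in HT29 and 20 to 21 in HTOXAR3, 15 to 18 and 17 to 18 for OXA plus Curcumin against untreated, and 0 to 0 for the 3 line differences. For OXA plus Curcumin against untreated in HT29, the call of *CBR1* was lost without untreated replicate 1 or 3 or OXA plus Curcumin replicate 1 or 2 (BY adjusted p of 0.051 to 0.071 in limma). With the replicate block the counts were 14, 8 and 9, 21 and 22, 17 and 18, and 0, 0 and 0 in the same order. It ended no call beyond those of *MAFG*, *GPX2*, *TALDO1*, *PGD* and *CYP4F11* given with the results, and added 1, that of *CBR1* for adding Curcumin in HT29. With the mean of all probes *FECH* was no longer called in any comparison of the report, since its probes disagree. The 3 arrays per group limit the precision, and for *NFE2L2*, *ADH7* and *CYP4F11* the signal over background does.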

Other observations

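Genes of other stress programmes were measured on the same arrays. Of 14 genes of the amino acid response driven by the transcription factor *ATF4*, 8 were called higher and 0 lower on adding Curcumin in HT29, and 8 higher and 2 lower in HTOXAR3 (limma, BY adjusted). The share called higher was 57.1% in each line, beside 3.14% and 4.43% of all gene names, and the share called lower in HTOXAR3 was 14.3%, beside 4.41%. *CTH*, which makes cysteine from cystathionine, rose by 1.68 and 1.52 (SE 0.09 each), and *CHAC1*, which degrades glutathione, by 1.34 and 1.06 (SE 0.09 each). *SLC3A2*, the partner chain of *SLC7A11*, named after its values were seen, rose by 0.67 and 0.74 (SE 0.07 each). *DDIT4*, an inhibitor of mTORC1 signalling, rose by 1.85 and 1.32, and *ASNS*, asparagine synthetase, by 1.00 and 1.16. After OXA alone 3 were called higher and 8 lower in HT29, and 2 higher and 5 lower in HTOXAR3 (57.1% and 35.7% lower, beside 7.62% and 4.94% of all gene names). Called higher were 21.4% and 14.3%, beside 8.33% and 5.31% of all gene names. OXA lowered *DDIT4* (log2 -1.37 and -0.94) and *ASNS* (log2 -1.53 and -1.09), values that share the arrays after OXA, and it raised *DDIT3* by 1.64 and 1.42 (SE 0.06 each). After OXA plus Curcumin *DDIT3* stood 2.67 and 2.19 above untreated. The response of *ASNS* to OXA plus Curcumin was higher by 0.60 in HTOXAR3 than in HT29 (SE 0.10, BY adjusted p = 0.045 in limma). Against untreated, *ASNS* was called lower in HT29 (log2 -0.53), while its 0.07 in HTOXAR3 was not called.

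Of 12 heat shock genes, 3 were called higher and 0 lower on adding Curcumin in HT29, and 5 higher and 0 lower in HTOXAR3, which is 25% and 41.7% called higher, beside 3.14% and 4.43% of all gene names. The chaperone genes *HSPA1A* (1.30 and 1.57, SE 0.09 each) and *HSPA1B* and the co-chaperone gene *BAG3* (1.35 and 1.45, SE 0.11 each) were called in both lines. RNA of *HSPA1A* and *HSPA1B* may bind both probes, since the genes are near-identical. After OXA alone 1 was called higher and 5 lower in HT29 and 0 higher and 4 lower in HTOXAR3. Called lower were 41.7% and 33.3%, beside 7.62% and 4.94% of all gene names, and *HSPA1A* was among them (log2 -0.83 and -0.58). The 1 called higher in HT29 is 8.33%, the same as the 8.33% of all gene names, and in HTOXAR3 5.31% of all gene names were called higher. In the untreated lines the 2 genes called were those of the mitochondrial chaperonins *HSPE1* and *HSPD1*, lower in HTOXAR3 (log2 -0.53 and -0.40). That is 16.7% called lower, beside 5.28% of all gene names.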
